A study of Mus musculus with 6 samples.

Results

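The vacuolar-type proton pump (V-ATPase) was followed through 10 of its subunit genes after silencing of Ep300 in RAW264.7, a macrophage line from mouse. The 10 members were chosen by gene symbol: Atp6v0a1, Atp6v0b, Atp6v0c and Atp6v0d1 of the membrane sector, and Atp6v1a, Atp6v1b2, Atp6v1c1, Atp6v1d, Atp6v1e1 and Atp6v1h of the cytosolic sector. All 10 were found among the 49492 rows of the count table, and all 10 were among the 15741 genes with enough counts to test. The study compared 3 libraries of cells given an siRNA against Ep300, which encodes the lysine acetyltransferase and coactivator p300, with 3 libraries given a control siRNA. Both siRNAs were used at 50 nM for 48 h, and the control cells were labelled as wild type and came from the same generation. Separate cultures are not mentioned in the labels for libraries that share a treatment; every p-value here therefore rests on the spread between libraries alone, and that spread may be technical.

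The V-ATPase pumps protons into lysosomes, endosomes and phagosomes, and gives macrophages the acidic compartments in which they digest what they take up. Its cytosolic V1 sector hydrolyses ATP at a ring of A and B subunits. The D subunit is part of the central shaft, E is part of the outer stalks, and C and H join V1 to the membrane sector. In the membrane sector V0, a ring of c subunits with 1 copy of c″ turns against subunit a, and subunit d couples the shaft to the ring. Several subunits have alternative genes that differ between tissues: Tcirg1 (subunit a3) and Atp6v0d2 (subunit d2) are known from osteoclasts, the bone-resorbing relatives of macrophages. MiT/TFE transcription factors, which switch on lysosomal genes, bind sites built around the E-box letters CACGTG.

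Promoter sequence is shown for the members that hold such letters, because the members with the lowest p-values in each direction, Atp6v1a and Atp6v0d1, are among them. RefSeq promoters (GRCm38.p6, 250 bases before to 50 bases after the start) were found by symbol for 7 of the 10 members. Those of Atp6v1b2, Atp6v1c1 and Atp6v1h were not matched. CACGTG, which reads the same on both strands, lay in the promoters of 3 of these 7 members, and in 7.15% of all 32851 promoters of the same length. The longer TCACGTGA, which contains CACGTG and is also its own reverse complement, lay in the promoters of 2 of the 7 members and in 0.974% of all promoters. The cAMP response element letters TGACGTCA, also the same on both strands, lay in none of the 7 and in 1.79% of all. A gene was counted if any of its promoters held the letters, while the percentages are of single promoters, so the figures are not like for like. Over all 19 subunit genes with a promoter, members included, 4 held CACGTG and 3 held TCACGTGA. Atp6v0e, not a member, was in both counts, at a log2 fold change of 0.03. Each stretch below runs 5′ to 3′ on the gene's strand, with the searched letters in capitals, and distances run from the first capital to the RefSeq start.
Atp6v1a, chr16:44139374-44139401, minus strand, 132 bases before the RefSeq start at 44139259: tttttttaaaTCACGTGAtaggcttaac
Atp6v0d1, chr8:105566051-105566078, minus strand, 4 bases before the RefSeq start at 105566064: cctactgcggTCACGTGAgacgcggtgc
Atp6v0b, chr4:117887350-117887375, minus strand, 36 bases before the RefSeq start at 117887329: gcgcgggggtCACGTGgggtcggcgc
Atp6v0b, chr4:117887332-117887357, minus strand, 18 bases before the same start: gtcggcgcatCACGTGcgccggtcag
In Atp6v0d1 the capitals span the RefSeq start itself. The GENCODE span of Atp6v1a, given below, begins farther upstream, at 44139705, so its stretch lies before the RefSeq start but within the GENCODE span. The 2 members with the longer letters had log2 fold changes on opposite sides of 0, as given below. A match of letters is a description of the sequence and shows neither binding nor regulation.

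Total counts ranged from 29993567 to 45377510 per library. Ep300 itself was at 51.1, 59.0 and 55.0 CPM after its own siRNA and at 106.8, 115.3 and 118.4 CPM after control siRNA, CPM being counts scaled to library depth with TMM factors. That is 0.485 of the control level (log2 fold change −1.04 ± 0.07, SE; edgeR adjusted p = 3.62e-05). Of 12 macrophage markers, 11 had enough counts to test. The 12 summed to 11187 to 12140 CPM after Ep300 siRNA and 9905 to 11575 CPM after control siRNA, a sum that a few abundant genes can carry. The 33 markers of other cell types summed to 5.83 to 7.47 CPM and 5.98 to 6.92 CPM, and 5 of them had enough counts to test. In every library 26 of them were at 10 counts or fewer, and 8 were at 0 throughout. Ep300 siRNA replicate 1 stood apart on the first principal component at −29.7, where Ep300 siRNA replicates 2 and 3 scored −13.8 and −8.88 and the controls 16.8 to 18.8. It also held the most reads of Gm42418, whose locus contains ribosomal RNA sequence (5823 CPM against 1327 to 2174 CPM).

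None of the 10 members passed the test after Ep300 silencing. By edgeR's quasi-likelihood test 0 rose and 0 fell at an adjusted p under 0.05, where 6.78% of all genes tested were called (2.76% higher, 4.02% lower). At an unadjusted edgeR p under 0.05 there were 4 of 10, with 22.2% of all genes as background. DESeq2 called 1 higher (Atp6v0d1) and 1 lower (Atp6v1a). It gave an adjusted p to 12384 genes, fewer than the 15741 tested by edgeR, and called 5.60% of them higher (11.6% in either direction). By limma-voom 1 was lower (Atp6v1a), with 6.63% of all genes called. The members' log2 fold changes ran from −0.21 to 0.26 with a median of 0.05, beside a median of −0.00378 over all genes tested. The members' median was 0.0164 without Ep300 siRNA replicate 1, 0.00367 without control siRNA replicate 3 and 0.0161 on library sizes alone. In those fits, in the same order, the median over all genes tested was 0.00240, 0.000424 and −0.0377. The median size of change, regardless of sign, was 0.0717 for the members and 0.141 for all genes tested. The latter include genes with few counts, whose fold changes vary more, so these sizes are not like for like. The groups did not overlap for 4 of the 10 members, 3 higher and 1 lower, as for 27.5% of all genes tested. Over the 10 members, the 95% intervals reached from 0.792-fold to 1.36-fold of control.

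**Figure D1:**
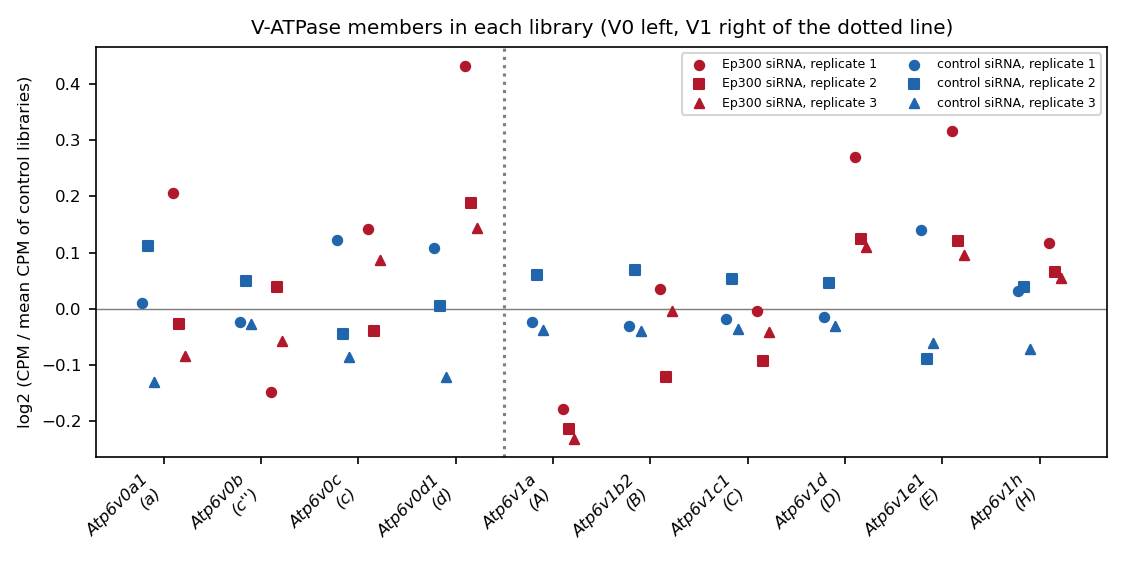
The vertical axis gives log2 of each library's CPM over the control mean, for the 4 V0 members (left of the dotted line) and 6 V1 members (right). Red marks the 3 Ep300 siRNA libraries and blue the 3 control libraries, with 1 symbol per replicate number. The groups do not overlap for Atp6v0d1, Atp6v1a, Atp6v1d and Atp6v1h, and Ep300 siRNA replicate 1 is the highest Ep300 siRNA library for 9 of 10 members.

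Among the V1 members, Atp6v1a, which encodes the catalytic A subunit (chromosome 16, 44085402 to 44139705, minus strand, GRCm38), had the lowest p. It stood at 271.0, 264.3 and 261.2 CPM after Ep300 siRNA, in replicate order, and at 301.6, 319.7 and 298.9 CPM in the controls. Every Ep300 siRNA library lay below every control library, as for 14.4% of all genes tested in that direction. The difference of −0.21 ± 0.06 on the log2 scale (SE; 95% interval −0.34 to −0.08) missed the threshold (edgeR adjusted p = 0.0578). It passed with DESeq2 (adjusted p = 0.0218), limma-voom (0.0476), library sizes alone (edgeR adjusted p = 0.0241), no filter on low counts (0.0385) and halved counts (0.0498).

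Atp6v1b2 encodes B2, the partner of subunit A in the ring. It was measured at 199.1, 178.7 and 193.8 CPM after Ep300 siRNA and 190.3, 203.8 and 189.2 CPM after control siRNA, with both groups in the same range. The difference was −0.03 ± 0.06 on the log2 scale (SE; 95% interval −0.17 to 0.11), with an edgeR adjusted p of 0.839. It was 0.0163 without Ep300 siRNA replicate 2, 0.0157 without control siRNA replicate 2 and −0.0535 without Ep300 siRNA replicate 1. The ratio of Atp6v1a to Atp6v1b2, both per length of their principal transcript, was 0.908, 0.987 and 0.899 after Ep300 siRNA and 1.06, 1.05 and 1.05 in the controls. That ratio did not overlap between the groups; it was chosen after the values were seen and was not tested.

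Atp6v1d, which encodes the D subunit of the central shaft, held 347.2, 313.6 and 310.5 CPM after Ep300 siRNA and 284.8, 296.9 and 281.6 CPM in the controls. Here every Ep300 siRNA library was above every control library, as for 13.0% of all genes tested in that direction. This amounted to 0.17 ± 0.06 on the log2 scale (SE; 95% interval 0.03 to 0.31), short of the threshold (edgeR adjusted p = 0.144).

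Atp6v1e1, for the E1 subunit of the outer stalks, was at 456.8, 398.7 and 392.0 CPM after Ep300 siRNA and at 404.4, 344.9 and 351.6 CPM after control siRNA. The groups overlapped, because control replicate 1 lay above the lower Ep300 siRNA libraries. Its log2 fold change was 0.18 ± 0.08 (SE; edgeR adjusted p = 0.225), and 0.12 without Ep300 siRNA replicate 1.

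C and H are the subunits that join V1 to V0, and neither passed. Atp6v1c1 (subunit C1) gave 181.5, 170.6 and 176.8 CPM after Ep300 siRNA and 179.7, 188.7 and 177.5 CPM in the controls. Its groups overlapped at a log2 fold change of −0.05 ± 0.06 (SE; edgeR adjusted p = 0.709). Atp6v1h (subunit H) gave 122.5, 118.3 and 117.4 CPM against 115.5, 116.0 and 107.5 CPM. Those libraries did not overlap, yet the log2 fold change was 0.08 ± 0.06 (SE; edgeR adjusted p = 0.474). Leaving out control siRNA replicate 2 took Atp6v1c1 to −0.00894 and Ep300 siRNA replicate 2 took it to −0.0209, while Atp6v1h was 0.0490 without control siRNA replicate 3.

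In V0, Atp6v0d1, which encodes the d1 subunit at the foot of the shaft (chromosome 8, 105524465 to 105566047, minus strand, GRCm38), had the largest fold change of the 10 members. It was at 79.2, 66.8 and 64.8 CPM after Ep300 siRNA (replicates 1 to 3) and at 63.2, 58.8 and 53.9 CPM in the controls. The groups did not overlap, but the lowest Ep300 siRNA library and the highest control library were close. The log2 fold change of 0.26 ± 0.09 (SE; 95% interval 0.07 to 0.45) missed the threshold (edgeR adjusted p = 0.0972). It passed by DESeq2 (adjusted p = 0.043) and, with no filter on low counts, by edgeR (adjusted p = 0.019), and it was 0.17 without Ep300 siRNA replicate 1 (edgeR adjusted p = 0.262).

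The proton-carrying ring was represented by Atp6v0c (subunit c) and Atp6v0b (subunit c″). Atp6v0c was at 117.6, 103.6 and 113.1 CPM after Ep300 siRNA and 115.9, 103.2 and 100.3 CPM after control siRNA. Atp6v0b was at 22.7, 25.8 and 24.2 CPM against 24.8, 26.0 and 24.7 CPM. For both, the groups overlapped, with log2 fold changes of 0.06 ± 0.07 (SE; edgeR adjusted p = 0.667) and −0.05 ± 0.07 (SE; edgeR adjusted p = 0.733). For Atp6v0c the value was 0.134 and 0.0278 without control siRNA replicates 1 and 3, and 0.0329 and 0.116 without Ep300 siRNA replicates 1 and 2. For Atp6v0b it was −0.000178 and −0.0998 without Ep300 siRNA replicates 1 and 2, and −0.0182 without control siRNA replicate 2. No sign changed, and neither gene passed in any of these fits. A processed pseudogene of Atp6v0c in the table, Atp6v0c-ps1, held at most 12 counts in any library. The antisense gene Gm12841 shares 243 exon bases with Atp6v0b and was at 6.70 ± 0.471 against 6.76 ± 0.664 CPM (SD, n = 3). The sources used here do not give whether counting used strand, and without strand the reads of the pair cannot be told apart.

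Atp6v0a1 encodes a1, an isoform of the subunit against which the ring turns. Its libraries held 163.3, 138.9 and 133.5 CPM after Ep300 siRNA and 142.5, 152.9 and 129.3 CPM after control siRNA, fully overlapping. The log2 fold change was 0.04 ± 0.09 (SE; edgeR adjusted p = 0.853), and it was −0.05 without Ep300 siRNA replicate 1 and −0.02 without control siRNA replicate 3.

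Ep300 siRNA replicate 1 was the highest of its group for 9 of the 10 members, the exception being Atp6v0b, whereas it was the highest for 37.2% of all genes tested. The mean of the members' centred log2 CPM was 0.0980 in that library, −0.017 and −0.014 in the other Ep300 siRNA libraries, and 0.00920, 0.00847 and −0.0850 across the controls in order of their numbers. Ep300 siRNA replicate 1 and control replicate 3 were thus the high and the low end. The high reads of Gm42418 went with the first of them; the part of RNA quality in the members' levels was not tested. Summed over the 10 genes, the level was 1961, 1779 and 1787 CPM after Ep300 siRNA and 1823, 1811 and 1715 CPM in the controls, with the groups overlapping.

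**Figure D2:**
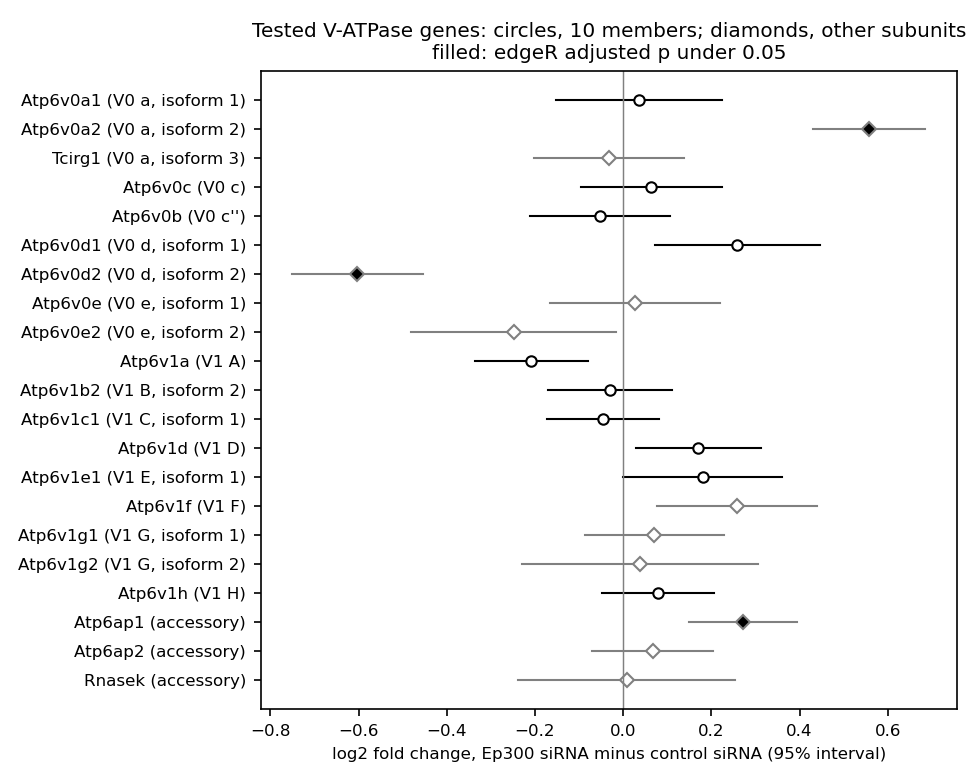
Points give the log2 fold change of each of the 21 tested V-ATPase genes (Ep300 siRNA minus control siRNA, 3 libraries each), and lines the 95% interval. Circles are the 10 members and diamonds the other subunits; filled symbols passed at an edgeR adjusted p under 0.05, which only Atp6v0a2, Atp6v0d2 and Atp6ap1 did.

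Of 17 other subunit and accessory genes, 11 were high enough to test; 2 rose (Atp6v0a2 and Atp6ap1), 1 fell (Atp6v0d2) and 8 did not pass, where 2.76% of all genes tested were called higher and 4.02% lower. The remaining 6, Atp6v0a4, Atp6v1b1, Atp6v1c2, Atp6v1e2, Atp6v1g3 and Atp6ap1l, held at most 4 counts in any library. Of these, Atp6v0a4 and Atp6v1b1 are known from kidney.

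Atp6v0d2, the alternative d subunit, stood at 180.6, 159.7 and 155.5 CPM after Ep300 siRNA and 248.8, 249.4 and 254.5 CPM in the controls. All Ep300 siRNA libraries lay far below all controls, and the gene fell, with 0.659 of the control level remaining (log2 fold change −0.60 ± 0.07, SE; edgeR adjusted p = 0.000661). This call held in each of the 16 alternatives run, with log2 fold changes from −0.66 to −0.56. The list of osteoclast genes was chosen with earlier results of these data known, so its count is a description. It had 5 of 13 tested members lower and none higher (background 4.02% lower and 2.76% higher), with a median of −0.25. Car2 (log2 fold change −1.04 ± 0.08, SE) and Acp5 (−1.10 ± 0.20, SE), a carbonic anhydrase and an acid phosphatase of osteoclasts, had the smallest p.

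Atp6v0a2, which encodes the a2 isoform (chromosome 5, 124628576 to 124724455, plus strand, GRCm38), was at 98.0, 99.9 and 94.2 CPM after Ep300 siRNA and at 64.3, 68.5 and 65.6 CPM after control siRNA. It rose 1.47-fold (log2 fold change 0.56 ± 0.06, SE; edgeR adjusted p = 0.000468), and passed in each of the 16 alternatives. An antisense gene, 4930404A12Rik, shares 663 exon bases with Atp6v0a2 and also rose, from 7.22 ± 0.409 to 10.7 ± 0.456 CPM (SD, n = 3; edgeR adjusted p = 0.0059). Reads of that overlap cannot be told apart without strand. Tcirg1, the a3 isoform, overlapped between the groups at 287.8, 337.2 and 299.2 CPM against 341.8, 305.6 and 297.9 CPM (edgeR adjusted p = 0.854).

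Atp6ap1, an accessory subunit that helps V0 assemble, was at 96.9, 93.1 and 92.7 CPM after Ep300 siRNA and 80.0, 76.0 and 78.0 CPM in the controls. It rose 1.21-fold (log2 fold change 0.27 ± 0.06, SE; edgeR adjusted p = 0.0149), a call lost without control siRNA replicate 2 (edgeR adjusted p = 0.0651). The second accessory protein, Atp6ap2, was at 0.07 ± 0.06 (SE; edgeR adjusted p = 0.593). Atp6v1f, the F subunit that joins D in the shaft, was higher in every Ep300 siRNA library at 346.1, 318.6 and 287.0 CPM against 280.9, 240.2 and 274.4 CPM. It missed the threshold (log2 fold change 0.26 ± 0.08, SE; edgeR adjusted p = 0.0893), and passed by DESeq2 (adjusted p = 0.0213), with no filter on low counts (edgeR adjusted p = 0.00952) and with the replicate block (0.0494). The other 6 tested genes were Atp6v0e, Atp6v0e2, Atp6v1g1, Atp6v1g2, Rnasek and Tcirg1, with log2 fold changes from −0.25 (Atp6v0e2, edgeR adjusted p = 0.190) to 0.07 (Atp6v1g1, edgeR adjusted p = 0.623). Rnasek shares 599 of its 885 exon bases with Gm21988 on the same strand, so reads of that overlap cannot be told apart even with strand.

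The members a1 and d1 share their place in the pump with these alternatives, so the share of each isoform gene was computed from counts divided by the length of the principal transcript. Atp6v0d2 took 59.4%, 60.5% and 60.6% of the d-subunit counts after Ep300 siRNA and 71.6%, 73.1% and 75.2% after control siRNA. Atp6v0d1 took the rest, which was 39.8% ± 0.678 after Ep300 siRNA and 26.7% ± 1.78 after control siRNA (SD, n = 3). The Atp6v0d2 share was 13.1 percentage points lower (the column of differences reads −13.1), with an exact two-sided permutation p of 0.1, the smallest that 3 against 3 libraries allow, and 0.2 after adjustment over 4 isoform comparisons.

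Among the a-subunit genes Tcirg1 took the most, 65.0% ± 3.08 after Ep300 siRNA and 68.4% ± 1.97 after control siRNA (SD, n = 3; exact permutation p = 0.2, adjusted 0.267). Atp6v0a1 took 26.5%, 21.1% and 22.3% against 22.2%, 25.2% and 22.6%, with no separation (difference −0.0443 percentage points; exact permutation p = 1). Atp6v0a2 took 11.9%, 11.4% and 11.8% against 7.52%, 8.46% and 8.61%, with the groups apart (exact permutation p = 0.1, adjusted 0.2). Atp6v0a4 had counts in 1 library only, of 2.

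**Figure D3:**
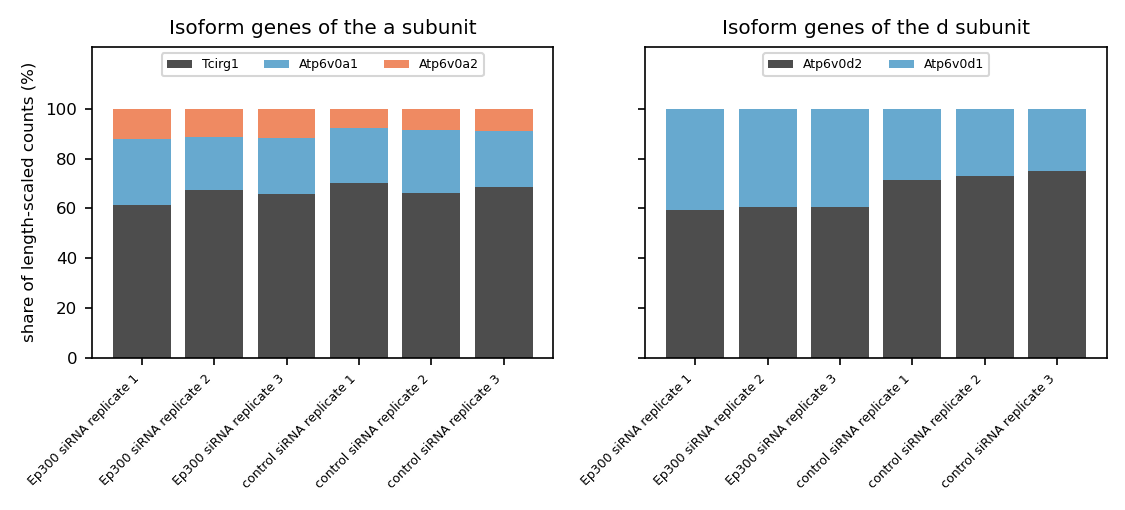
Bars give the share of length-scaled counts (percent, 1 bar per library) of the isoform genes of subunit a (left) and subunit d (right). Atp6v0d2 takes 59.4% to 60.6% of subunit d after Ep300 siRNA and 71.6% to 75.2% after control siRNA, and Atp6v0a2 takes 11.4% to 11.9% of subunit a against 7.52% to 8.61%.

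Levels of different genes were compared only as CPM per kb of principal transcript, averaged over the 6 libraries. On that scale the members ran from Atp6v0b at 24.7 ± 1.21 to Atp6v1e1 at 298.3 ± 31.0 (SD over 6 libraries). Atp6v0a1 (35.8) and Atp6v0d1 (39.6) had overlapping ranges over libraries, followed apart by Atp6v1h (56.7). Atp6v1a (67.6) and Atp6v1b2 (68.1) overlapped, as did Atp6v1d (83.4), Atp6v1c1 (86.5) and Atp6v0c (92.1). In each of the other neighbouring pairs the ranges did not overlap. The order depends on the length used: per kb of all annotated exons, Atp6v1h was the lowest member (11.9) and Atp6v1e1 still the highest (95.2). The spread over the 6 libraries was smallest for Atp6v1c1 (coefficient of variation 3.32%) and largest for Atp6v0d1 (13.3%), whereas Atp6v0d2 reached 22.9%. This spread pools both treatments, so a difference between the groups adds to it. Within groups Atp6v0d2 was at 165.2 ± 13.4 CPM after Ep300 siRNA and 250.9 ± 3.13 CPM after control siRNA (SD, n = 3).

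**Figure D4:**
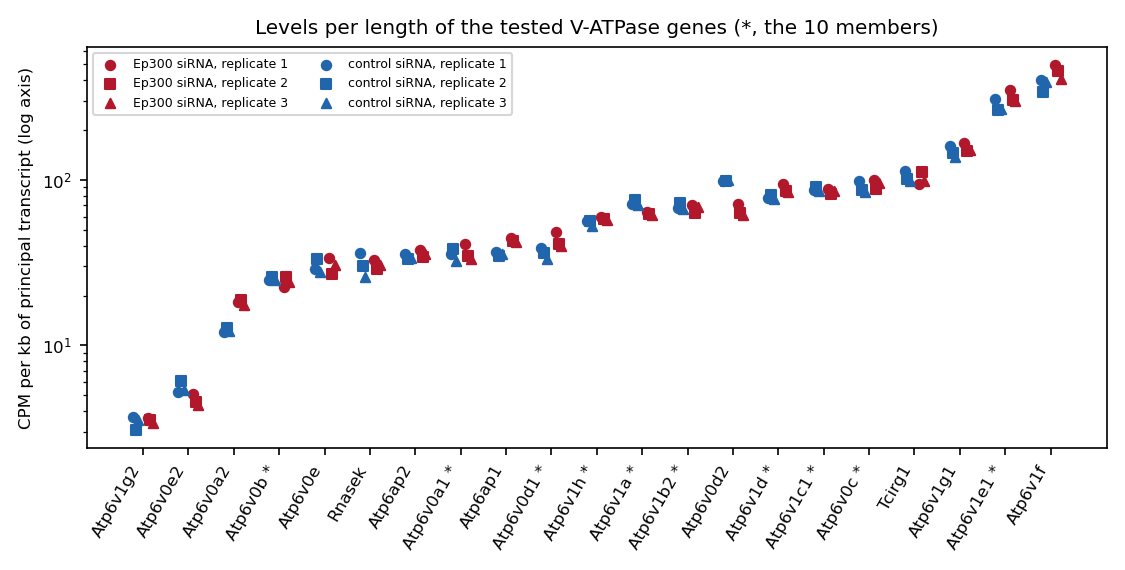
The vertical axis (log scale) gives CPM per kb of principal transcript for the 21 tested V-ATPase genes in order of their mean, with 1 point per library, red for Ep300 siRNA and blue for control siRNA; asterisks mark the 10 members. Atp6v0d2 and Atp6v0a2 are the genes whose red and blue points part most clearly.

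The mean profile of the members over the 6 libraries was most like those of Bbs5 (Pearson r = 0.996), Eef2kmt (0.986), Cpt2 (0.985), Rps6kc1 (0.981) and Elovl1 (0.977), out of 8937 genes compared. They were picked for a high r over 6 libraries that share 2 treatments, so these values are a description. Among the members, the same profile was matched best by Atp6v0a1 (r = 0.916) and worst by Atp6v0b (r = −0.563), with Atp6v1a at −0.204. Each member is part of that mean, which raises its r.

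Genes that work with the pump were counted in lists, against the 2.76% of all genes tested that were called higher and the 4.02% called lower. Of 14 tested factors for V-ATPase assembly and regulation, Atp6v1h among them, edgeR called none (2 were under 0.05 before adjustment), nor did DESeq2 or limma-voom (median log2 fold change 0.03). The lowest p was that of Ncoa7, a protein that binds V1, at −0.20 ± 0.06 (SE; edgeR adjusted p = 0.0621). Of 29 lysosomal ion channels and transporters, 1 rose and 3 fell (median 0.04). Cln3, a lysosomal membrane protein, rose 1.29-fold, and Slc29a3, a lysosomal nucleoside transporter, fell to 0.670 of its control level. Slc36a1, an amino acid transporter, fell to 0.752, and the channel Tpcn1 to 0.812. Of 23 genes of the Ragulator, Rag and mTORC1 machinery, which senses nutrients at the lysosome through the V-ATPase, 1 rose and 1 fell (median 0.06). These were Lamtor1, the Ragulator anchor (1.24-fold), and Fnip2, a partner of folliculin (0.783 of control).

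Lysosomal hydrolases, which work in the acid that the pump makes, were called in both directions. Of 40, 15 rose, 3 fell and 22 did not pass (median log2 fold change 0.24), beside 2.76% higher and 4.02% lower over all genes tested. Naglu and Gaa, which degrade heparan sulphate and glycogen, rose 1.41-fold and 1.38-fold, while Asah1, a ceramidase, and Galc, a galactosylceramidase, fell to 0.817 and 0.736. The third that fell, Ctsk, an osteoclast protease, is also in the osteoclast list. Of 16 lysosomal membrane proteins, 4 rose and none fell (median 0.16), led by Lmbrd1 (1.34-fold) and Abca2 (1.29-fold). Of 20 genes of the mitochondrial F-type ATP synthase, the other large rotary ATPase of the cell, edgeR called none (0 were under 0.05 even before adjustment), nor did DESeq2 or limma-voom (median −0.03). These lists were not tested against the members, so no difference between them is claimed.

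**Figure D5:**
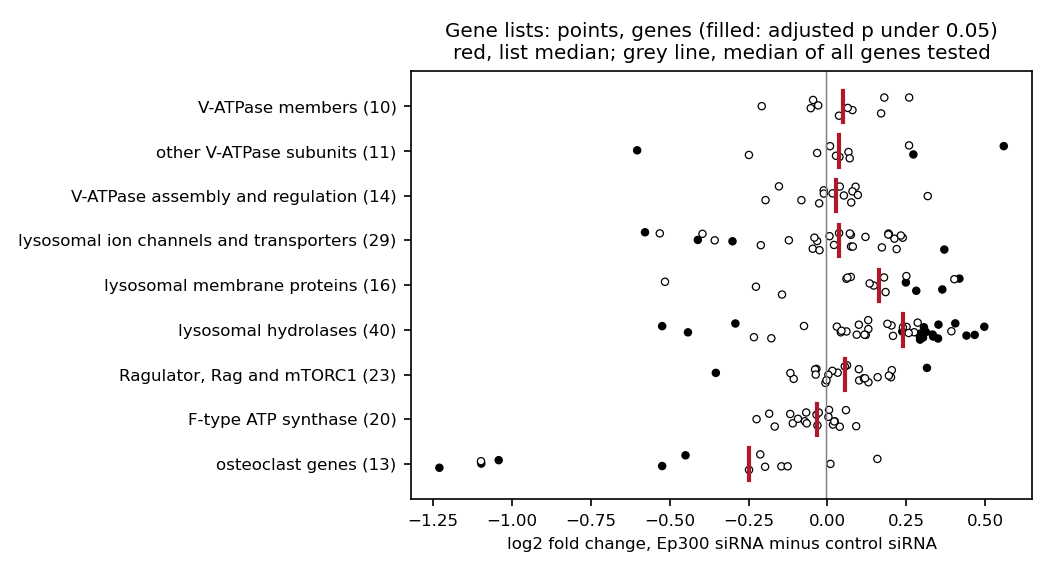
Each point is the log2 fold change of 1 tested gene (Ep300 siRNA minus control siRNA), filled where the edgeR adjusted p was under 0.05, in 9 lists with the number tested in brackets; points are spread vertically for visibility. Red bars give list medians (0.05 for the members, 0.24 for lysosomal hydrolases) and the grey line the median of all genes tested.

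Of the 4 MiT/TFE factors, 1 fell and 3 did not pass, where 4.02% of all genes tested were called lower and 2.76% higher. Mitf fell, to 0.819 of control (60.7 ± 1.61 against 74.1 ± 2.76 CPM, SD, n = 3; edgeR adjusted p = 0.0135). Tfe3 was at 65.4 ± 2.48 against 62.7 ± 0.461 CPM, Tfeb at 7.77 ± 0.200 against 8.03 ± 0.486 CPM and Tfec at 3.96 ± 0.271 against 4.71 ± 1.15 CPM (SD, n = 3), and none of these 3 passed (edgeR adjusted p = 0.596, 0.824 and 0.453).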

How the data were processed

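Stranded mRNA libraries were sequenced from 3 Ep300 siRNA and 3 control siRNA samples. The authors deposited raw read counts per gene symbol. The tools listed in the submitters' processing notes are STAR 2.5.3a, fastp 0.23.4, edgeR 3.12.1 and featureCounts, and the build is GRCm38; how strand and multimapping reads were handled is not given there. From 79.8% to 80.9% of counts of 1 to 4 were even; whether both mates of a pair were counted is not given, and halved counts were an alternative. Counts carry PCR copies, so intervals cover the spread between libraries only.

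Testing used R 4.3.3 and edgeR 4.0.16 (filterByExpr, TMM, quasi-likelihood F-test, 2 groups, no covariate), with Benjamini-Hochberg adjustment over 15741 genes and 0.05 as threshold. DESeq2 1.42.0 and limma 3.58.1 (voom) were alternatives. The edgeR step was tested on simulated counts, where 50 genes were altered for each size of change. Most 1.25-fold changes were missed, with 12 of 50 genes recovered. Recovery was 70% when the change was 1.5-fold. False calls made up 15 of the 154 calls. The altered genes were drawn from weakly and strongly expressed genes alike and were not matched to the members' levels. The data gave 1068 calls, so a gene needed a lower p to pass in the simulation. These recoveries therefore do not give the chance of calling a member. Centred log2 CPM used a prior count of 2. Positions and lengths came from GENCODE M21 (GRCm38), the length being that of the longest transcript with the best APPRIS rank. Python 3.11.15 and matplotlib 3.10.9 drew figures. Libraries of a group differed by more than counting error (chi-square over its degrees of freedom, 9.24 to 32.2).

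The members and lists were chosen with earlier results of these data known. Genes named are Ep300, the members, every other subunit gene, MiT/TFE factors, up to 2 called genes each way per list with the smallest p, and the 5 genes of at least 5 CPM most like the members' mean. Tpcn1, Ctsk, Ncoa7, Gm42418, Gm12841, 4930404A12Rik and Atp6v0c-ps1 fall outside this rule and were named after their values were seen. Gm21988 also falls outside it and was named for its overlap with Rnasek. Osteoclast and lysosomal genes had been reported on these samples before.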

Additional observations from a re-analysis of the deposited data

How the results depend on the processing

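Counts of changed genes over the whole table were 1068, 1721 with no filter on low counts (30207 genes tested), and 490 to 1054 with 1 library left out; on library sizes alone 316 were higher and 788 lower, against 435 and 633. Of the members, 0 rose by edgeR with TMM, but 1 did with no filter, by DESeq2 and with the replicate number as a block (Atp6v0d1, edgeR adjusted p = 0.0227). None fell, but 1 did on library sizes alone, with no filter, by DESeq2, by limma-voom and with halved counts (Atp6v1a). With 1 library left out, no member passed (edgeR adjusted p of Atp6v1a 0.063 to 0.215, of Atp6v0d1 0.0546 to 0.262). The cause of these changes was not tested beyond the number of genes and libraries in each. Same-numbered libraries did not deviate together (r = 0.0870, 0.0198 and −0.0466), so the block rests on a number alone; it gave 1357 calls, and added Atp6v1f (edgeR adjusted p = 0.0494).

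Log2 fold changes turned sign with 1 library left out for Atp6v0a1 (−0.0472 to 0.105), Atp6v1b2 (−0.0535 to 0.0163), Tcirg1 (−0.101 to 0.0343), Atp6v0e (−0.0421 to 0.113), Atp6v1g2 (−0.0240 to 0.0966) and Rnasek (−0.10 to 0.15). Atp6v0e (−0.0062) and Rnasek (−0.0262) also turned on library sizes alone, and Rnasek with no filter (−0.00032); none of these 6 genes passed under any alternative run. On library sizes alone, values of 6 members moved by over 1.5 times without a change of sign or call: Atp6v0b −0.0862, Atp6v0c 0.0297, Atp6v1c1 −0.0791, Atp6v1h 0.0454, Atp6v0a1 0.00242 and Atp6v1b2 −0.0629. With 1 library left out, Atp6ap2 was 0.0347 to 0.107 and Atp6v1g1 0.0277 to 0.139. The difference in Atp6v0a1 share was −1.65 to 1.06 percentage points with 1 library left out, and that in Atp6v0d2 share −14.0 to −12.2. Total exon length as a divisor, added after the data were seen, changed neither direction.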
